A study of Homo sapiens with 6 samples.

Results

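NUDT11 and the other enzymes that make and break inositol pyrophosphates were examined after NAT10 knockdown by siRNA in HK-2 cells exposed to Cisplatin. NUDT11 was chosen for its low level after NAT10 siRNA in this same comparison, so its values are given as a description with no test. The other genes, the hydrolases NUDT10, NUDT3 and NUDT4 and the kinases IP6K1, IP6K2, PPIP5K1 and PPIP5K2, were chosen for their enzyme activity. Each of these 8 genes was found by its symbol among 62754 genes in the count table. All 8 were among the 19874 genes with enough counts to be tested.

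HK-2 is an immortalised line of human proximal tubule epithelial cells, and Cisplatin is a platinum drug that crosslinks DNA and injures this part of the kidney. Both groups received Cisplatin, and they differed in the siRNA, a negative control sequence in CP+siNC and a sequence against NAT10 in CP+siNAT10. The labels state no dose or time, and the methods select 20 μM and 24 hours for work in these cells. No group without Cisplatin was analysed here, so no value below measures the effect of the drug. Libraries of mRNA, 3 per group, were sequenced with paired 150-base reads. The counts on genes summed to 19321665, 21602988 and 19464027 in the CP+siNC libraries and to 20793709, 21531774 and 25192736 in the CP+siNAT10 libraries.

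Inositol pyrophosphates are inositol phosphates in which at least 1 ring position carries a diphosphate, a bond rich in energy. The IP6 kinases (IP6K1, IP6K2 and IP6K3) and the PPIP5 kinases (PPIP5K1 and PPIP5K2) add these groups to different ring positions, and the PPIP5 kinases also carry a phosphatase domain. The diphosphoinositol polyphosphate phosphohydrolases NUDT3, NUDT4, NUDT10 and NUDT11, members of the NUDIX family, remove them again. These molecules bind SPX domains, such as that of the phosphate exporter XPR1, and so tie into phosphate balance, which the proximal tubule controls for the body.

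NAT10, the acetyltransferase that makes N4-acetylcytidine in RNA, was at 75.8, 71.4 and 73.2 counts-per-million (CPM, relative to library sizes scaled by TMM) in the CP+siNC libraries and at 41.3, 40.5 and 42.4 CPM in the CP+siNAT10 libraries. The lowest CP+siNC library lay well above the highest CP+siNAT10 library. The log2 fold change of CP+siNAT10 against CP+siNC was -0.83 (SE 0.043, adjusted p = 2.79e-15 by the quasi-likelihood test of edgeR, adjusted over all tested genes by Benjamini-Hochberg), which left 56.4% of the control level. All adjusted p-values below come from this fit. The labels do not say whether the 3 libraries of a group came from separate cultures, so p-values measure the spread between libraries, which may be technical. Counts of libraries of the same group differed by more than counting noise (chi-square per gene 1.73 to 2.54). Libraries of different groups differed more (18.3 to 22.7), and no library was an exact copy of another. Duplicate reads, if not merged, would also raise these values, so they do not show separate cultures. Beyond counting noise, the spread within groups was small, with a common coefficient of variation of 3% in the edgeR fit. In bulk RNA, fewer cells that express a gene and less RNA per cell cannot be told apart.

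Markers of the labelled cell type were mixed. Of 14 proximal tubule markers, 9 had a mean under 1 CPM, and SLC22A6 had no count in any library. The 2 most abundant of these markers were PAX8, a renal transcription factor, at 30.1 to 32.8 CPM in CP+siNC and 42.4 to 51.2 CPM in CP+siNAT10, and GGT1, named after its value was seen, at 33 to 33.4 and 25.3 to 29.1 CPM. The sum over all 14 proximal tubule markers was 86.8 to 91.1 CPM in CP+siNC and 94.1 to 101 CPM in CP+siNAT10. Of 6 epithelial markers, KRT8 was the most abundant at 1430 to 1470 CPM, and only CDH1 was under 1 CPM. KRT18, the partner keratin of KRT8, was lower in CP+siNAT10 (342 to 353 against 265 to 277 CPM, adjusted p = 3.79e-10), as was KRT7 (adjusted p = 0.00147), while EPCAM was higher (14.2 to 16.3 against 17.9 to 21.1 CPM, adjusted p = 0.000902), these 3 being named after their values were seen. The epithelial sum was 2060 to 2120 CPM in CP+siNC and 1990 to 2020 CPM in CP+siNAT10. Of 14 markers of other cell types, 9 were under 1 CPM, while CD68, a lysosomal protein found in macrophages and many other cells, made up most of their sum at 197 to 215 CPM in CP+siNC and 264 to 287 CPM in CP+siNAT10. Of the 7 of these markers with enough counts to be tested, CD68 (adjusted p = 7.97e-10), COL1A1 (adjusted p = 0.000622) and SNAP25 (adjusted p = 0.00119) were called higher in CP+siNAT10. RBFOX3 (-0.75, adjusted p = 0.0161) was called lower. All but CD68 were named after their values were seen. Among all tested genes 44.1% were called, 21.8% higher and 22.3% lower. The call of RBFOX3 was lost with DESeq2 (adjusted p = 0.0834), without CP+siNC replicate 3 (adjusted p = 0.1) and without CP+siNAT10 replicate 3 (adjusted p = 0.117), within a range of 0.012 to 0.117 over 12 alternatives. PTPRC, also named after its value was seen, passed the filter only through its CP+siNAT10 libraries, so it had to be higher there and nothing is read from its call. The sum over all 14 markers of other cell types was 232 to 247 CPM in CP+siNC and 305 to 323 CPM in CP+siNAT10. The part of these shifts in the results below was not tested.

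NUDT11 and NUDT10 encode nearly identical hydrolases and lie on the X chromosome, 152 kb apart and on opposite strands, with no tested gene between them. NUDT11 lies at chrX:51490011-51496592 on the minus strand and NUDT10 at chrX:51332231-51337525 on the plus strand (GRCh38). Their coding sequences, each 495 bases in GENCODE 29, differ at 6 positions and are 98.79% identical. Counted from the first coding base, with the base of NUDT11 first, the differences are G24A, A84G, A207G, T264C, G266C and A495G. Of these, G266C alone falls outside the third base of a codon. The stretch from coding base 207 to coding base 266 holds 3 of the differences, shown in capitals, and is printed because these lie closest together within the coding sequence.
NUDT11: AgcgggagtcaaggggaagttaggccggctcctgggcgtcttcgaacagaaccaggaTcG
NUDT10: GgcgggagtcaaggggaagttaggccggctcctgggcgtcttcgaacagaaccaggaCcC
The longest identical run was 228 bases in the coding sequences, 46 bases in the 5′ UTRs and 13 bases in the 3′ UTRs. Of 2236 windows of 150 bases in the NUDT11 transcript, 79 (3.53%) also occur in NUDT10, and the same windows are 4.15% of those of NUDT10. Reads within them cannot be assigned to either gene by their own sequence, unless the paired read falls outside the shared run. How the counting treated such reads is not given in the sources used here. The remaining windows carry at least 1 base that separates NUDT11 from every other annotated gene.

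NUDT11 had 325, 346 and 287 counts in the CP+siNC libraries and 90, 106 and 137 counts in the CP+siNAT10 libraries. These were 17.3, 16.2 and 14.9 CPM against 4.27, 4.85 and 5.40 CPM. Every CP+siNC library lay above every CP+siNAT10 library, and the gap between the groups was much wider than the spread within either. The means were 16.1 ± 1.18 CPM (SD, n = 3) and 4.84 ± 0.565 CPM (SD, n = 3), so that 30.1% of the control level was left. The fitted log2 fold change was -1.72 (SE 0.095). In the order of all 19874 fold changes this was number 17 from the lowest, which is the value for which the gene was picked.

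NUDT10 was close to the limit of counting, with 16, 37 and 34 counts in CP+siNC and 9, 11 and 10 counts in CP+siNAT10. In CPM these were 0.85, 1.73 and 1.77 against 0.427, 0.503 and 0.394. The groups did not overlap, but CP+siNC replicate 1 lay well below the other CP+siNC libraries. The log2 fold change was -1.72 (SE 0.31, adjusted p = 4.36e-05 by edgeR). NUDT10 passed the filter on low counts only through its CP+siNC libraries, so a tested NUDT10 had to be lower in CP+siNAT10, and its call adds no support to that of its neighbour. Reads shared with NUDT11 would also carry the difference of the more abundant gene into the NUDT10 count. With the counts of both genes summed, the log2 fold change was -1.72 (SE 0.088). NUDT11 contributed 89.4% to 95.3% of the summed counts in CP+siNC and 90.6% to 93.2% in CP+siNAT10, and these ranges overlap.

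NUDT3, a hydrolase that also removes caps from mRNA, moved the other way. It was at 37.3, 36.5 and 35.2 CPM in CP+siNC and at 52.7, 56.3 and 55.3 CPM in CP+siNAT10. All CP+siNAT10 libraries were above all CP+siNC libraries, with a log2 fold change of 0.59 (SE 0.046, adjusted p = 1.58e-11 by edgeR). This rise is uncertain as a statement on the hydrolase, because 95.8% of the 150-base windows of NUDT3 occur in another annotated gene on either strand. RPS10-NUDT3, a read-through from the ribosomal protein gene RPS10 into NUDT3 on the same strand, shares 43.3% of the exonic bases of NUDT3. That gene was at 195, 200 and 193 CPM against 196, 198 and 206 CPM, with a log2 fold change of 0.029 (SE 0.034, adjusted p = 0.514 by edgeR). RPS10 itself was at a similar 172, 177 and 170 CPM against 165, 164 and 174 CPM (-0.043, adjusted p = 0.337), and since the read-through contains RPS10 exons, its value cannot be read as that of its NUDT3 end. ENSG00000225339, on the opposite strand, overlaps 4749 bases at the 3′ end of NUDT3 by the positions printed in the table, and in GENCODE 29, where it is AL354740.1, 71.1% of the windows of NUDT3 occur in it. It was at 14.7, 13.7 and 12.9 CPM in CP+siNC and 22.0, 23.5 and 23.4 CPM in CP+siNAT10. It was higher in every CP+siNAT10 library, with a log2 fold change of 0.74 (SE 0.066, adjusted p = 2.66e-10 by edgeR). The library kit kept strand, but the strand setting of the counting is not given in the sources used here, so the rises of NUDT3 and of this opposite-strand gene cannot be told apart.

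NUDT4, the most abundant of the 4 hydrolase genes per length, was at 117, 116 and 125 CPM in CP+siNC and at 82.4, 84.1 and 83.4 CPM in CP+siNAT10. Its groups were apart, and the log2 fold change was -0.52 (SE 0.038, adjusted p = 4.81e-12 by edgeR). NUDT4B, a copy on chromosome 1, shares 85.8% of its 150-base windows with NUDT4, and 8.67% of the windows of NUDT4 occur in that copy. NUDT4B was at 11.5, 12.0 and 11.6 CPM against 9.45, 9.42 and 7.81 CPM (log2 fold change -0.40, SE 0.088, adjusted p = 0.000409 by edgeR). Reads of NUDT4 counted on the copy cannot be told from its own. With NUDT4, NUDT4B and NUDT4P2 summed the log2 fold change was -0.51 (SE 0.037, adjusted p = 4.39e-12 by edgeR), close to that of NUDT4 alone. A larger share of NUDT4, 22.2% of its windows, is also exonic sequence of UBE2N on the opposite strand, and 30.9% in all occur in some other gene. UBE2N was at 45.8, 46.9 and 47.6 CPM against 49.5, 47.8 and 48 CPM and did not pass (log2 fold change 0.049, SE 0.043, adjusted p = 0.392 by edgeR). The length of NUDT4 in the table, 10078 bases, equals all its exons in GENCODE 29, of which only 2070 bases lie before the end the table prints, so that length takes in the bases shared with UBE2N. How reads over these common bases were assigned is not given in the sources used here, so the level of NUDT4 is uncertain.

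**Figure D1:**
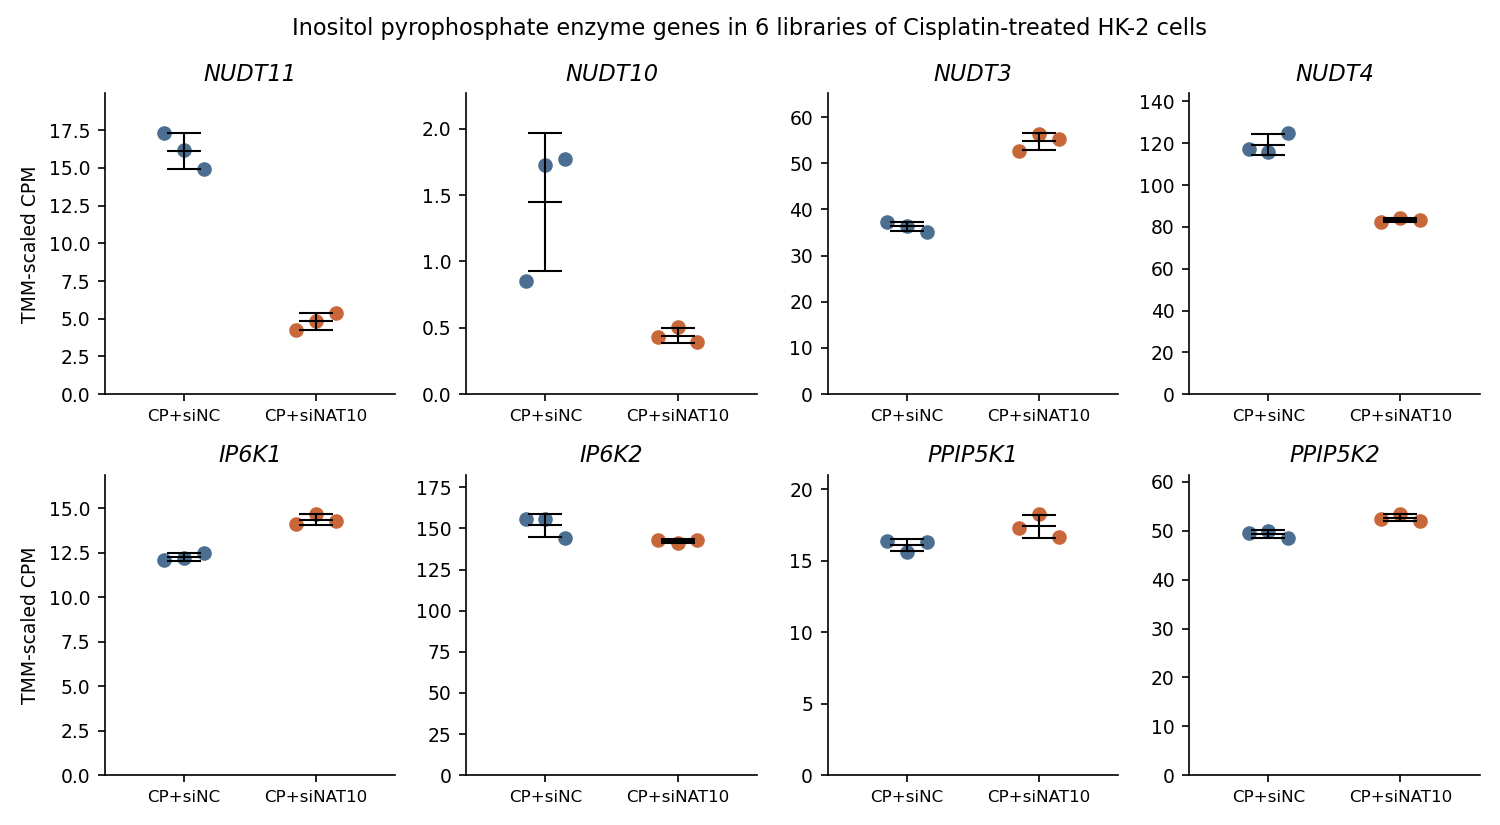
Level of each gene in TMM-scaled CPM (vertical axes, each starting at 0) in the 3 CP+siNC and 3 CP+siNAT10 libraries. Points are libraries and bars are the mean and SD. NUDT11 lies at 14.9 to 17.3 CPM in CP+siNC and at 4.27 to 5.40 CPM in CP+siNAT10, while IP6K2 lies at 144 to 156 and at 141 to 143 CPM.

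IP6K1 was at 12.1, 12.2 and 12.5 CPM in CP+siNC and at 14.1, 14.7 and 14.3 CPM in CP+siNAT10. The groups did not overlap, and the log2 fold change was 0.23 (SE 0.072, adjusted p = 0.0116 by edgeR). This call did not hold with DESeq2, which gave 0.22 and an adjusted p of 0.0825, within a range of 0.00416 to 0.0825 over 12 alternatives.

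IP6K2, a kinase known for a part in apoptosis, was at 156, 156 and 144 CPM in CP+siNC and at 143, 141 and 143 CPM in CP+siNAT10. CP+siNC replicate 3 lay only just above the CP+siNAT10 libraries. The log2 fold change was -0.091 (SE 0.036, adjusted p = 0.0411 by edgeR), a difference of a few percent in level. It no longer passed under 9 of 12 alternatives, with adjusted p-values from 0.00655 to 0.235. The larger fold changes came without CP+siNC replicate 3 (-0.13) and the smaller with library sizes taken as they are (-0.053, adjusted p = 0.235).

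PPIP5K1 was at 16.4, 15.6 and 16.3 CPM against 17.3, 18.3 and 16.7 CPM, a log2 fold change of 0.12 (SE 0.066) that did not pass (adjusted p = 0.153 by edgeR). The groups were apart by a margin smaller than the spread within CP+siNAT10. A pseudogene of PPIP5K1 on chromosome 15, ENSG00000249839, holds 30.8% of the 150-base windows of PPIP5K1. Its values of 10.1, 11.5 and 11 CPM in CP+siNC and 12.6, 12.1 and 13.6 CPM in CP+siNAT10 gave a log2 fold change of 0.23 (SE 0.081, adjusted p = 0.0192 by edgeR). That call was lost with DESeq2 (adjusted p = 0.0996), without CP+siNC replicate 1 (0.18, adjusted p = 0.113) and without CP+siNAT10 replicate 3 (0.18, adjusted p = 0.109), within a range of 0.00814 to 0.113 over the alternatives. Summed with this pseudogene, PPIP5K1 passed (0.17, SE 0.051, adjusted p = 0.00819), and how shared reads were divided between them was not tested. PPIP5K2 was at 49.6, 49.9 and 48.5 CPM against 52.5, 53.5 and 52.1 CPM, a log2 fold change of 0.094 (SE 0.042) that did not pass (adjusted p = 0.0721). It passed only with library sizes taken as they are (0.13, adjusted p = 0.0134), within a range of 0.0134 to 0.224 over 12 alternatives. No 150-base window of IP6K1, IP6K2 or PPIP5K2 occurs in another annotated gene.

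Among all 19874 tested genes 8771 (44.1%) passed an adjusted p of 0.05, with 4331 (21.8%) higher and 4440 (22.3%) lower in CP+siNAT10. Of the 7 enzymes other than NUDT11, NUDT3 and IP6K1 were higher, NUDT10, NUDT4 and IP6K2 were lower, and the 2 PPIP5 kinases did not pass. The direction of NUDT10 was set by the filter and nothing is read from its call. Groups that did not overlap in CPM were found for all 8 genes, NUDT11 by its choice and NUDT10 by the filter, against 10221 genes (51.4%) among all tested. A log2 fold change of more than 1 in either direction, together with the adjusted p, was found for 464 genes (2.33%). NUDT11, by its choice, and NUDT10, through the filter, were among these, so their number is not read against that share. The median log2 fold change was 0.0017 over the 8 genes and 0.007 over all tested genes. In the order of all tested genes, 95.1% lay below NUDT3 and 7.94% below NUDT4, whereas the 4 kinases sat nearer the middle, with 37.4% below IP6K2, 61.7% below PPIP5K2, 64.9% below PPIP5K1 and 76.5% below IP6K1.

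**Figure D2:**
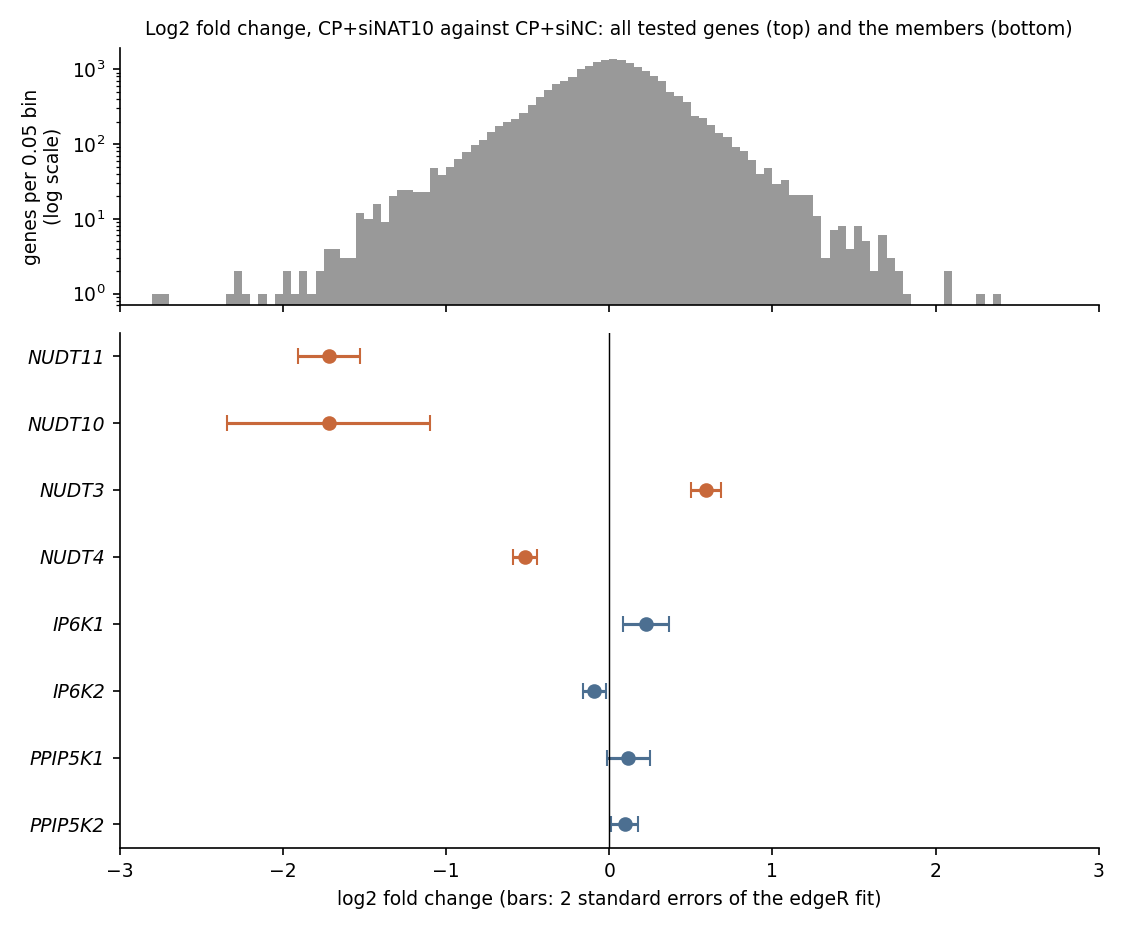
Top, number of tested genes (log scale) by log2 fold change of CP+siNAT10 against CP+siNC. Bottom, log2 fold change of each of the 8 genes with 2 standard errors on each side, hydrolases in orange and kinases in blue. NUDT11 and NUDT10 lie at -1.72, NUDT3 at 0.59, NUDT4 at -0.52 and the kinases between -0.091 and 0.23.

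Levels of different genes were compared as CPM per kilobase of the gene length given in the table. As for NUDT4 above, the length of PPIP5K2, 17270 bases, equals all its exons in GENCODE 29, of which 6140 bases lie within the span the table prints. The places of these 2 genes in the order, and the sums below that hold them, rest on the longer lengths. In CP+siNC the order was IP6K2 (27.0 ± 1.24, SD, n = 3), NUDT4 (11.8 ± 0.504), NUDT11 (6.77 ± 0.496), NUDT3 (3.67 ± 0.111), PPIP5K2 (2.86 ± 0.043), IP6K1 (2.36 ± 0.034), PPIP5K1 (2.00 ± 0.051) and NUDT10 (0.702 ± 0.251). Neighbours in this order did not overlap in any of the 3 libraries. In CP+siNAT10 the order was IP6K2 (25.3 ± 0.196), NUDT4 (8.27 ± 0.084), NUDT3 (5.53 ± 0.186), PPIP5K2 (3.05 ± 0.042), IP6K1 (2.76 ± 0.061), PPIP5K1 (2.17 ± 0.099), NUDT11 (2.03 ± 0.237) and NUDT10 (0.214 ± 0.027). By these lengths NUDT11 stood above NUDT3 and every kinase but IP6K2 in CP+siNC. In CP+siNAT10 NUDT11 could not be separated from PPIP5K1, with the other neighbours again apart. With only the 6140 bases within the printed span, PPIP5K2 would stand above NUDT11 in CP+siNC and above NUDT3 in CP+siNAT10. In CP+siNAT10 it would then also stand just above NUDT4, if NUDT4 kept its longer length. With only its 2070 bases before the printed end, NUDT4 would stand above IP6K2 in both groups.

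Summed per length, the 4 hydrolase genes were at 23.0, 22.8 and 23.1 CPM per kilobase in CP+siNC and at 15.5, 16.3 and 16.3 in CP+siNAT10, or 69.8% of control. Every CP+siNAT10 library was below every CP+siNC library, and the direction was partly set by the choice of NUDT11. By the longer length of NUDT4, the share of NUDT11 in this sum was 31.5%, 29.8% and 27.1% in CP+siNC and 11.6%, 12.5% and 13.9% in CP+siNAT10. NUDT3 took 16.4%, 16.2% and 15.4% in CP+siNC and 34.3%, 34.9% and 34.2% in CP+siNAT10. By these counts NUDT3 lay below NUDT11 in CP+siNC and above it in CP+siNAT10. This exchange is uncertain, because the rise counted on NUDT3 cannot be told apart from that of ENSG00000225339. NUDT11 was chosen for its low level, so its part in the exchange is no separate result. The share of NUDT4 stayed between 50.3% and 53.8% in all 6 libraries. With only the 2070 bases before its printed end, NUDT4 would take a much larger share in every library. The shares of NUDT11 and NUDT3 would then be much smaller in both groups.

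IP6K1 and IP6K2 summed to 30.1, 30.0 and 27.9 CPM per kilobase in CP+siNC and to 28.2, 27.9 and 28.2 in CP+siNAT10, and these groups overlapped. IP6K2 made up most of that sum, at 10.7 to 11.9 times the per-length level of IP6K1 in CP+siNC and 8.89 to 9.43 times in CP+siNAT10. The PPIP5 kinases summed to 4.91, 4.83 and 4.83 against 5.20, 5.38 and 5.10, or 108% of control. Their ratio, PPIP5K2 over PPIP5K1, overlapped between the groups at 1.39 to 1.49 and 1.36 to 1.45. It rests on the longer length of PPIP5K2, and the shorter length would raise it by the same factor in both groups. These sums are of RNA, and no enzyme activity or inositol pyrophosphate was measured in these libraries.

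**Figure D3:**
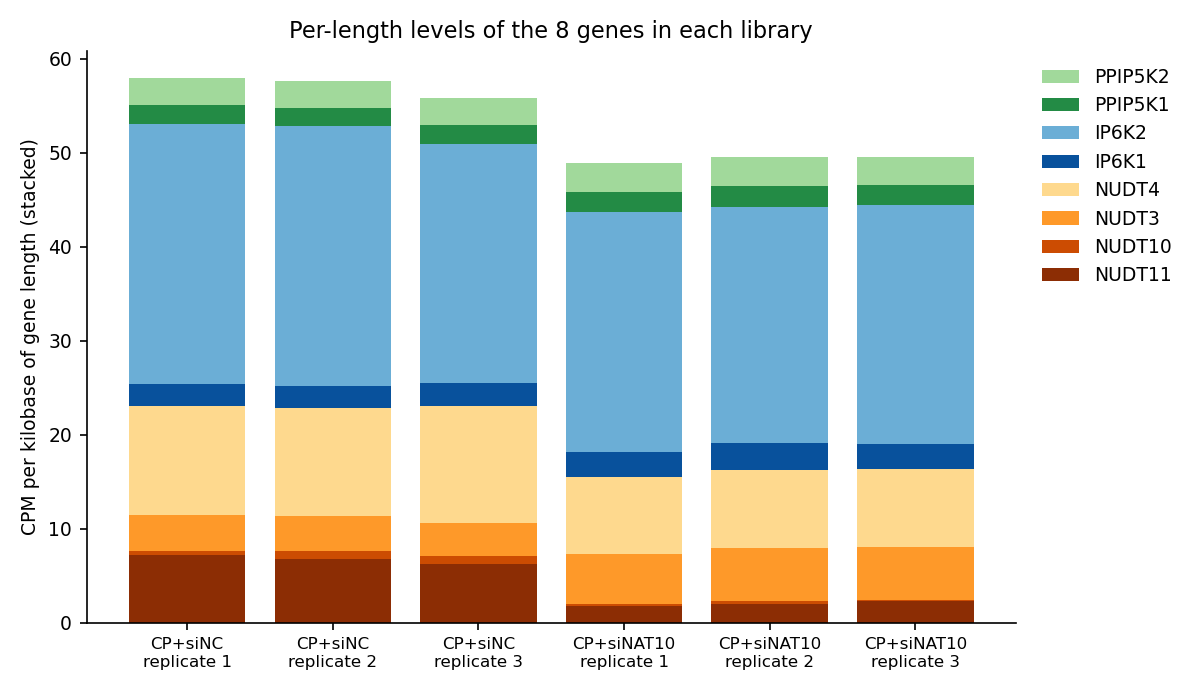
Stacked levels of the 8 genes in CPM per kilobase of gene length (vertical axis, from 0) in each of the 6 libraries. The stack and all shares rest on the longer lengths of NUDT4 and PPIP5K2. The whole stack is 55.8 to 58.0 in CP+siNC and 48.9 to 49.6 in CP+siNAT10, with the NUDT11 layer falling from 11.2% to 12.5% of the stack to 3.67% to 4.58% and the IP6K2 layer at 45.7% to 52.1%.

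Promoter windows of RefSeq (GRCh38.p14, from 250 bases before to 50 bases after each start) were found for all 8 genes, 14 windows in total. The windows of NUDT11 and of the downstream start of NUDT10 are shown because the transcripts of both genes were low in CP+siNAT10 and the windows resemble each other. NUDT11 was chosen for its low level and NUDT10 was tested only through CP+siNC, so nothing is read from their shared direction. Only the 250 bases before the start are printed, chrX:51496593-51496842 on the minus strand for NUDT11 and chrX:51332572-51332821 on the plus strand for NUDT10. Capitals mark GGGCGG on either strand, so CCGCCC as well, the core of the GC box.
NUDT11: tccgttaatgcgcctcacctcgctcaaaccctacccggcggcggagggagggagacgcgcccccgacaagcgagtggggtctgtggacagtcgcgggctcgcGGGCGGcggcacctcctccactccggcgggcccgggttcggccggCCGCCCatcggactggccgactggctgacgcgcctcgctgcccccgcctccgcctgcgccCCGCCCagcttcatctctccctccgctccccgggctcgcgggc
NUDT10: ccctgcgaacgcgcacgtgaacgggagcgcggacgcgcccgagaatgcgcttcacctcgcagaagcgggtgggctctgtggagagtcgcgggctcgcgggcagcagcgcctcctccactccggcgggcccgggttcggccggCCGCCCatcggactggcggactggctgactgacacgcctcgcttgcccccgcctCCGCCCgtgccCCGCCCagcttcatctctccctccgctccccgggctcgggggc
Both full windows had 74.7% G and C, 40 CpG dinucleotides and 4 matches to GGGCGG on either strand. The median of 35116 windows was 14 CpG, and 92.4% had fewer than these. GGGCGG on either strand occurs in 45% of all windows, so its presence is common. TATAAA, searched on both strands and present in 11.5% of windows, was in neither. The longest run shared by this pair of windows was 51 bases. The upstream start of NUDT10 was less alike, with 52.7% G and C, 9 CpG and a longest run of 9 bases shared with NUDT11. None of these windows was measured here, and a match is a description of letters only.

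The 3′ UTRs of NUDT11 and NUDT10, unlike their coding sequences, have little in common. They were searched on the transcript strand for the heptamer GACTATC and for the heptamer ACTATCA, which overlaps it by 6 letters, and lastly for the unrelated heptamer CATATTC. All 3 come from an earlier analysis of these same counts, so a match describes the gene and supports nothing. The siRNA sequences are not given in the sources used here, and matches of the siRNA to NUDT11 or NUDT10 were not examined. The 1738-base 3′ UTR of NUDT11, in exon 2 of 2, holds CATATTC at position 308 (chrX:51491424-51491452, minus strand, GRCh38) and ACTATCA at position 676 (chrX:51491056-51491084), given with 11 bases on each side and the heptamer in capitals.
CATATTC site: cttactctttgCATATTCtgcatctgaga
ACTATCA site: tttattcaaaaACTATCActtgctataaa
The 1286-base 3′ UTR of NUDT10 holds none. At least 1 of the heptamers occurs in 17% of 3′ UTRs of a length like that of NUDT11 and in 17.3% of all tested protein-coding genes. The much longer 3′ UTRs of NUDT3, NUDT4 and PPIP5K2 hold 1, 2 and 1 matches, where 69.5%, 67% and 75.4% of 3′ UTRs of like length hold any. IP6K1, IP6K2 and PPIP5K1 hold none.

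The nearest tested genes on either side of the pair on the X chromosome had smaller fold changes than NUDT11, in both directions. NUDT11 was chosen for its extreme value, so nothing is read from its neighbours having smaller ones. On the side of NUDT10, USP27X, a deubiquitinase, was lower (log2 fold change -0.39, adjusted p = 2.54e-05 by edgeR), and CLCN5, a chloride and proton exchanger of proximal tubule endosomes, was higher (0.82, adjusted p = 0.00019). SHROOM4, the nearest on that side, was at 2.87, 3.60 and 3.74 CPM against 3.18, 2.93 and 2.56 CPM, and its groups overlapped (-0.25, adjusted p = 0.197). On the side of NUDT11, GSPT2, a translation release factor, gave -0.10 (adjusted p = 0.119), MAGED1 was lower (-0.30, adjusted p = 6.61e-08) and MAGED4B was higher (0.14, adjusted p = 0.00553). The call of MAGED4B was lost without CP+siNC replicate 2 (0.10, adjusted p = 0.0645), within a range of 0.000752 to 0.0645 over the alternatives. These 6 genes lay 247 to 1610 kb from NUDT11.

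The genes whose profile over the 6 libraries was most like that of NUDT11 were IL23A, SLC4A8, CCNG1, ADIPOR1 and ARMCX1. Likeness was the root mean square distance of log2 CPM, each gene centred on its CP+siNC mean, computed for 12303 genes whose mean reached 5 CPM. The distances were 0.101, 0.124, 0.126, 0.151 and 0.158. These genes were picked by the same contrast that chose NUDT11, so their fall is no separate result. IL23A, a cytokine subunit, was at 17.9 to 18.7 CPM in CP+siNC and 5.60 to 6.27 CPM in CP+siNAT10. CCNG1, a cyclin induced by p53, was at 36.5 to 41.9 and 12.0 to 13.4 CPM.

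Further kinases of the inositol phosphate pathway, IP6K3 among them, were called in both directions. Of 7 such genes, 3 were higher, 2 were lower and 2 did not pass, beside 21.8% higher and 22.3% lower among all tested genes, with a median log2 fold change of 0.22 beside 0.007 for all tested genes. IPMK, inositol polyphosphate multikinase, was at 22.6, 23.4 and 22.5 CPM in CP+siNC and at 12.9, 11.2 and 12.1 CPM in CP+siNAT10. All its CP+siNAT10 libraries were far below control, and their mean was 52.8% of it (log2 fold change -0.92, SE 0.067, adjusted p = 4.21e-12 by edgeR). IP6K3, the IP6 kinase best known from muscle, was scarce at 1.49, 1.35 and 1.35 CPM against 0.712, 0.778 and 0.552 CPM. It was lower in all CP+siNAT10 libraries (-1.04, SE 0.26, adjusted p = 0.00135) and was the only further kinase past a log2 fold change of 1 in size, which it did not reach without CP+siNAT10 replicate 3 (-0.90, with adjusted p-values from 0.000884 to 0.0162 over 12 alternatives). ITPK1 was higher (2.54 to 2.76 against 3.29 to 5.18 CPM, 0.70, adjusted p = 0.000584), and so was ITPKC (16.5 to 20.2 against 21.5 to 23.0 CPM, 0.28, adjusted p = 0.000912). The remaining kinase that rose was IPPK (0.22, adjusted p = 0.00133), which makes inositol hexakisphosphate, the substrate of the IP6 kinases; it was named after its value was seen.

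Of 17 tested inositol phosphatases, 6 were higher, 5 were lower and 6 did not pass, beside 21.8% higher and 22.3% lower among all tested genes, with a median of 0.0094. IMPA2, which releases free inositol from its monophosphate, was at 3.13 to 3.84 against 6.03 to 6.91 CPM (log2 fold change 0.92, adjusted p = 3.41e-07 by edgeR), and its more abundant relative IMPA1 did not pass (-0.042, adjusted p = 0.525), both named after their values were seen. The synaptojanins SYNJ2 and SYNJ1, which act on phosphoinositides, rose by 0.55 (adjusted p = 2.99e-12 by edgeR) and 0.58 (adjusted p = 7.01e-08). BPNT2, a Golgi phosphatase, was at 72.9 to 75.9 CPM against 58.5 to 61.4 CPM (-0.33, adjusted p = 9.68e-08). Among 13 tested genes of phospholipase C and the IP3 receptors, 5 were higher, 3 lower and 5 did not pass, with a median of 0.035. PLCB1 fell from a mean of 45 CPM to a mean of 26.7 CPM (-0.75, adjusted p = 2.62e-12), while PLCG1 (0.36, adjusted p = 5.21e-10) and PLCE1 (0.43, adjusted p = 1.81e-05) rose. PLCB2, 1 of the 5 called higher, was at only 0.467 to 0.607 and 0.855 to 1.42 CPM (1.12, adjusted p = 0.00239). Only 2 of its CP+siNC libraries reached the limit of the filter on low counts, which asks for 3, so it was tested only through CP+siNAT10 and nothing is read from its call.

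Of 7 tested genes of inositol supply, 2 were higher, 2 were lower and 3 did not pass, with 44.1% called among all tested genes, and their median was 0.062. SLC5A3, the sodium-coupled myo-inositol transporter, was at 98.4, 94.0 and 93.8 CPM against 67.4, 68.2 and 68.5 CPM (-0.49, adjusted p = 1.58e-11 by edgeR), and ISYNA1, which makes inositol from glucose phosphate, had means of 10.7 and 7.43 CPM (-0.53, adjusted p = 1.56e-05). CDS2, an enzyme of phosphatidylinositol synthesis, was higher (0.58, adjusted p = 1.37e-10). Without CP+siNC replicate 3 or CP+siNAT10 replicate 3, only 1 gene of this list was called higher.

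Of 5 tested phosphate transport genes, 2 were higher, 2 lower and 1 did not pass, beside 21.8% higher and 22.3% lower over all genes tested, with a median of 0.21. The phosphate importers SLC20A1 (51.1 to 53.6 against 37.7 to 38.6 CPM, -0.46, adjusted p = 1.33e-09 by edgeR) and SLC20A2 (8.82 to 9.76 against 7.03 to 7.10 CPM, -0.41, adjusted p = 0.000513) were lower. The exporter XPR1, named after its value was seen, was at 14.9 to 16.5 against 19.0 to 19.5 CPM (0.28, adjusted p = 0.000796), and its partner KIDINS220 was also higher (0.28, adjusted p = 2.51e-06). These 2 importers and the exporter were called in opposite directions. A further importer, SLC34A3, named after its value was seen, was at 1.19 to 1.31 against 1.04 to 1.69 CPM and did not pass (0.21, adjusted p = 0.503). SLC34A1, the main importer of the proximal tubule, and SLC34A2 had too few counts to be tested.

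Beyond the 4 pyrophosphate hydrolases, 18 other NUDIX genes were tested, of which 4 were higher, 6 lower and 8 did not pass, with a median of 0.017. Among all tested genes 44.1% were called, 21.8% higher and 22.3% lower. None was past a log2 fold change of 1 in size. NUDT16, which removes caps and acts on inosine nucleotides, was at 116, 103 and 119 CPM against 71.7, 70.5 and 65.5 CPM (-0.70, adjusted p = 7.14e-13 by edgeR). NUDT21, a subunit of the cleavage factor for polyadenylation, was at 123 to 128 against 149 to 153 CPM (0.28, adjusted p = 1.17e-07). Only 2 of the list were called higher without CP+siNC replicate 2 and with DESeq2.

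**Figure D4:**
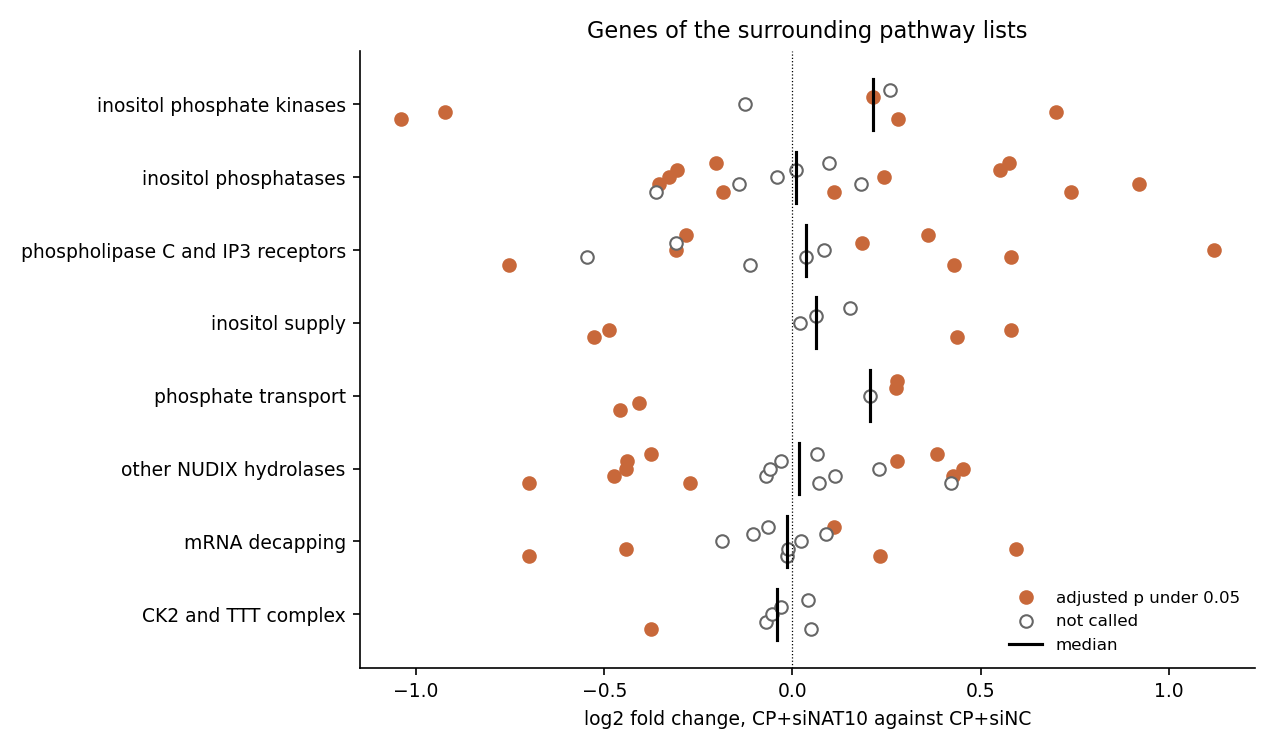
Log2 fold change of CP+siNAT10 against CP+siNC (horizontal axis) for each tested gene of 8 lists (rows). Filled points passed an adjusted p of 0.05, open points did not, and the bar is the median of the list; vertical offsets only separate points. Medians run from -0.042 for CK2 and the TTT complex to 0.22 for the inositol phosphate kinases.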

How the data were processed

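The authors sequenced mRNA and deposited raw read counts per gene. The submitters' processing notes name Trimmomatic 0.36, STAR 2.5.3a, Subread 1.5.1 (featureCounts), edgeR 3.12.1 and GRCh38. The kit adds 8-base molecular identifiers, meant for removing duplicate reads. Whether they were merged before counting, and the strand, multimapping and annotation settings of the counting, are not given in the sources used here. Unmerged copies would count as separate reads.

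Low genes were removed by filterByExpr (count of at least 10, total of at least 15), and counts were scaled by TMM and compared with edgeR 4.0.16 (limma 3.58.1, R 4.3.3) by the quasi-likelihood test over all 19874 genes, with Benjamini-Hochberg adjustment. SE came from the fold change and its F statistic. The steps were tested on simulated data. Alternatives were other scalings and filters, DESeq2 1.42.0, the replicate number as a block, each library left out and copies summed. Sequences came from GENCODE 29 and RefSeq, read with Python 3.11.15 (pandas 2.3.3, matplotlib 3.10.9).

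The members and lists were chosen with earlier results of these data known. Genes named were the members, NAT10, copies and overlapping genes, up to 3 genes with the smallest p per list plus those past a log2 fold change of 1, up to 3 neighbours on each side, the 5 nearest profiles and the most abundant markers. Other tested genes fall outside this rule and are marked where they appear as named after their values were seen.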

Additional observations from a re-analysis of the deposited data

How the results depend on the processing

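No main result changed direction under the alternatives. Of 339 values of the main results under alternatives, 321 kept their direction and their side of the threshold, or stayed within 1.5 times for a count, as did 677 of 694 values of 58 other named genes. The exceptions were ENSG00000249839, MAGED4B, PTPRC and RBFOX3, which lost calls, and KRT8 and IMPA1, which have no call and lie near 0. KRT8 was -0.0046 in the main fit, 0.0334 with library size only, 0.00685 with the looser filter and 0.00404 without CP+siNAT10 replicate 2, the left-out values running from -0.0201. IMPA1 ran from -0.113 without CP+siNC replicate 2 to 0.0152 without CP+siNC replicate 1. NUDT11 ran from -1.82 to -1.64 on the log2 scale over 13 alternatives. The count of genes past a log2 fold change of 1 was 711 with no filter beyond a total of 1 count and 279 with a mean of at least 1 CPM, against 464, since low genes enter or leave.

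IP6K2 lost its call with library size only (-0.053, adjusted p = 0.235), with the looser filter (-0.079, adjusted p = 0.13), with DESeq2 (-0.094, adjusted p = 0.0785) and without any library except CP+siNC replicate 3, the left-out values running from -0.13 to -0.073. IP6K1 lost it with DESeq2 (0.22, adjusted p = 0.0825). PPIP5K2 passed with library size only (0.13, adjusted p = 0.0134), which moved the median of all genes to 0.044. PPIP5K1 passed with ENSG00000249839 summed (0.17, adjusted p = 0.00819). That pseudogene was matched as the copy once the table could be searched. Inositol supply genes called higher ran from 1 to 2 with libraries left out, and other NUDIX genes called higher from 2 to 4, with 2 under DESeq2. The cause was not tested.

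With the replicate number as a block, IP6K2 gave -0.089 (adjusted p = 0.053). Same-numbered libraries did not deviate together (correlations -0.0355, 0.0178 and -0.154), so the numbers do not pair them.

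Depth limits NUDT10, with 9 to 37 counts a library, and PLCB2, PTPRC and IP6K3. Shared and overlapping reads limit NUDT3, NUDT4, NUDT10, NUDT4B and PPIP5K1.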

Other observations

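Of 12 tested genes of mRNA decapping, the process in which NUDT3 and NUDT16 also act, 3 were higher, 2 were lower and 7 did not pass, near the 44.1% called among all tested genes, with a median log2 fold change of -0.013 beside 0.007 for all tested genes. DCP2, the main decapping enzyme and itself a NUDIX protein, was at 56.0, 53.4 and 56.4 CPM in CP+siNC and at 41.8, 38.7 and 41.5 CPM in CP+siNAT10. Its groups were apart (-0.44, SE 0.046, adjusted p = 4.6e-09 by edgeR). EDC3, a decapping activator, was at 11.8 to 13.0 CPM against 17.8 to 19.4 CPM (0.59, adjusted p = 6.93e-08), so the enzyme and this activator differed in direction.

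CK2 and the TTT complex, known as targets of the product of IP6K2, were represented by 6 genes, of which 1 was lower and 5 did not pass, beside 44.1% called and 22.3% lower among all tested genes, with a median of -0.042. CSNK2A2, a catalytic subunit of CK2, was at 67.8 to 70.8 CPM against 52.8 to 54.6 CPM (-0.38, SE 0.041, adjusted p = 9.36e-09 by edgeR). The other catalytic subunit CSNK2A1 (-0.053, adjusted p = 0.232) and the regulatory subunit CSNK2B (-0.072, adjusted p = 0.202) did not pass.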
